A study of Mus musculus with 8 samples.

Results

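The 10 transcription regulators described here set up and maintain the B lineage and were read in mouse cells that the labels call pro-B cells, an early precursor stage of B cell development. They were Ebf1, Pax5, Foxo1, Lef1, Pou2af1, Bach2, Bcl6, Bcl11a, Runx1 and Mef2c, chosen by gene symbol from a table of 55487 genes, and all 10 members passed the filter on low counts that left 18884 genes for testing. Of the 8 libraries, 4 carry the genotype label CD25_KO (labelled knockout below) and 4 the label WT (wild type below). The gene for CD25, a chain of the receptor for interleukin-2, is Il2ra. The labels give the genotype as the only difference between the groups and name no age, strain or way in which the allele was made. RNA was taken from the cells with Trizol and made into libraries with a SMARTER mRNA kit. The labels do not state whether each library is from its own animal, and the p-values therefore measure only the spread between these libraries, which may be technical in part.

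In B cell development the pioneer factor EBF1 opens B lineage chromatin, FOXO1 acts with it to switch on early B lineage genes, and PAX5 then commits the cells by activating B cell genes and silencing those of other lineages. RUNX1, with its partner CBFB, acts upstream of Ebf1. BCL11A and MEF2C are needed early, from lymphoid progenitors on. LEF1 is a nuclear partner of beta-catenin expressed in pro-B and pre-B cells. POU2AF1, also called OCA-B, is a coactivator that binds octamer factors on DNA. BACH2 and BCL6 are repressors, known at the pre-B cell checkpoint and in germinal centres. The interleukin-7 receptor is the main cytokine input of mouse pro-B cells and signals through the common gamma chain that the interleukin-2 receptor also uses.

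The promoters of Foxo1, Ebf1 and Runx1 are shown because they were the windows among those of these factors in which a short motif of one of the factors was found. They come from RefSeq on GRCm38.p6, where all 10 members had at least 1 window, 18 windows in all. Each window runs from 250 bases before the annotated start to 50 bases after it, and capitals mark the motif. The Foxo1 window lies at chr3:52268087-52268386 on the plus strand, the Ebf1 window at chr11:44617850-44618149 on the plus strand and the Runx1 window at chr16:92826025-92826324 on the minus strand.
Foxo1: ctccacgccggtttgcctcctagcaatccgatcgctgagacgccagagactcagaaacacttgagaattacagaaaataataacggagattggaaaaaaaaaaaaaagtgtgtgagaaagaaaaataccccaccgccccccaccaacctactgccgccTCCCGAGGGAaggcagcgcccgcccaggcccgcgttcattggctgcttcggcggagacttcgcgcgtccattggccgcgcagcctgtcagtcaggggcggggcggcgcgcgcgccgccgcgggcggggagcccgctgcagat
Ebf1: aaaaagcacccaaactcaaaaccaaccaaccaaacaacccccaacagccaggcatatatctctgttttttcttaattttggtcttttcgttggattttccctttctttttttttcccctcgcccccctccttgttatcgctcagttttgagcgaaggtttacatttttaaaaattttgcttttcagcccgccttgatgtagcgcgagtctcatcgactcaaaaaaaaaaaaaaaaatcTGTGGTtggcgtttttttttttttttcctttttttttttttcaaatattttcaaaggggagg
Runx1: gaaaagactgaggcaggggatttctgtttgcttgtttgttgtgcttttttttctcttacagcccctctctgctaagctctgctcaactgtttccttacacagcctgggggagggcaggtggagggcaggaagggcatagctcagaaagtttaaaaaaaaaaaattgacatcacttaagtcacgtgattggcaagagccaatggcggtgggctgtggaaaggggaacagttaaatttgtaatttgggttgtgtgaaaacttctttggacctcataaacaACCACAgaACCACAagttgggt
In the Foxo1 window the capitals are the palindromic EBF motif, TCCC and GGGA parted by any 2 bases, which starts 92 bases before the annotated start. This motif was in 0.904% of all 32851 promoter windows in the RefSeq table. In the Ebf1 window the RUNX motif ACCACA reads on the opposite strand, and in the Runx1 window it occurs in 2 places on the gene's own strand. The RUNX motif was in 16.8% of all windows. The other motifs searched on both strands were GTAAACA for FOXO factors, in 3.65% of all windows, ATGCAAAT, the octamer, in 1.74%, and ATCAAAG for LEF1 and its relatives, in 3.73%. None of these 3 was found in the 18 windows. A match is a description of the letters and was not tested as a binding site.

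The targeted gene checks the labels and was read first. Il2ra had 144.7, 168.3, 243.7 and 168.3 CPM (counts scaled to library size with TMM factors) in labelled knockout 1 to 4, against 200.2, 216.4, 215.6 and 140.4 CPM in wild type 1 to 4. The groups overlapped, with a log2 fold change of -0.09 ± 0.19 (SE), a 95% interval from -0.51 to 0.32 and an adjusted p of 0.849 by edgeR's quasi-likelihood test. Counts over all exons do not show whether single exons were missing, so the libraries are called labelled knockout here. Library totals ran from 43974037 to 57988772 counts. Of 9 pro-B markers 0 passed the test, but 8 had a lower value in the libraries labelled knockout, and the median over the 9 was -0.33 on the log2 scale. The smallest p-values were those of the surrogate light chain genes Igll1 and Vpreb1, described with the targets of EBF1 and PAX5. Chosen after their values were seen, Dntt, the terminal transferase gene, averaged 42.1 ± 27.1 CPM in the libraries labelled knockout and 79.3 ± 38.8 CPM in wild type (SD, n = 4 each), and Il7r, the interleukin-7 receptor chain, 539 ± 43.0 CPM in the libraries labelled knockout and 547 ± 21.1 CPM in wild type. Kit, the stem cell factor receptor of pro-B cells, also chosen so, was near 0, with 1.20 ± 0.488 CPM in the libraries labelled knockout and 1.76 ± 1.06 CPM in wild type. Ms4a1, encoding the later B cell marker CD20, had 657 ± 44.2 CPM in the libraries labelled knockout and 770 ± 87.4 CPM in wild type. The stage is therefore given as labelled.

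Some libraries stood apart before any of the factors was compared. Y-linked transcripts (Ddx3y, Uty, Kdm5d and Eif2s3y summed) reached 505 CPM in labelled knockout 2, 505 CPM in labelled knockout 4 and 483 CPM in wild type 2, and stayed at or below 2.79 CPM in the other 5 libraries. Wild type 2 also held 60.0 CPM of Xist, the transcript of the inactive X chromosome. Labelled knockout 1 and 3, both without Y-linked transcripts, also had the lowest summed neutrophil, erythroid and natural killer cell markers. The 12 neutrophil markers summed to 178 and 120 CPM in labelled knockout 1 and 3 and to between 260 and 565 CPM in the other 6 libraries, labelled knockout and wild type alike. The 12 erythroid markers summed to between 319 and 2340 CPM in the libraries labelled knockout and between 2970 and 8740 CPM in wild type, with the top value in wild type 4. The 10 natural killer cell markers summed to between 8.4 and 29.5 CPM in the libraries labelled knockout and between 32.3 and 46.0 CPM in wild type. Of the 12 erythroid markers 11 had a lower value in the libraries labelled knockout, and 0 passed the adjusted test. At an unadjusted p under 0.05, 5 were lower, where 7.11% of all genes tested were. They were Alas2 and the globin genes Hba-a1, Hba-a2, Hbb-bs and Hbb-bt, and these globin genes held most of the erythroid sum in every library. Hba-a1 and Hba-a2 averaged 335 and 334 CPM in the libraries labelled knockout and 1170 and 1180 CPM in wild type. A fragment that fits several genes adds to each, so these 2 may share fragments and the 5 may not be separate results. The smallest p was that of Alas2, with 2.60 ± 1.40 CPM in the libraries labelled knockout and 7.86 ± 3.6 CPM in wild type (SD, n = 4 each). None of the markers in these 3 lists was at 0 in all libraries. In bulk RNA fewer cells of a type and less RNA per cell cannot be told apart.

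Per kilobase of exon the coactivator gene Pou2af1 was by far the most abundant of the 10 regulators and the repressor gene Bcl6 the least. In CPM per kilobase, Pou2af1 averaged 659 ± 36.3 in the libraries labelled knockout and 633 ± 46.3 in wild type (SD, n = 4 each), above 99.6% of the genes tested. Ebf1 had 78.0 ± 14.8 CPM per kilobase in the libraries labelled knockout and 58.9 ± 3.07 in wild type, and Bach2 had 47.3 ± 11 in the libraries labelled knockout and 37.5 ± 3.59 in wild type. Then came Pax5 with 25.6 ± 3.38 in the libraries labelled knockout and 22.1 ± 3.07 in wild type, and Mef2c with 20.1 ± 1.65 in the libraries labelled knockout and 21.4 ± 3.75 in wild type. The libraries of Pax5 and Mef2c overlapped in both groups, so their order is not set. Foxo1 stood at 12.9 ± 2.82 CPM per kilobase in the libraries labelled knockout and 9.43 ± 0.361 in wild type. Below it Bcl11a had 6.57 ± 1.41 CPM per kilobase in the libraries labelled knockout and 5.35 ± 1.02 in wild type. Lef1, which overlapped it in both groups, had 6.11 ± 0.746 in the libraries labelled knockout and 5.27 ± 0.251 in wild type. Runx1 had 4.64 ± 1.43 CPM per kilobase in the libraries labelled knockout and 3.47 ± 1.03 in wild type, overlapping Lef1 in the libraries labelled knockout only. Bcl6 had 1.95 ± 0.465 in the libraries labelled knockout and 1.97 ± 0.434 in wild type, close to the middle of all genes tested, at the 44.0th percentile. The other 6 pairs of neighbours did not overlap in either group. Exon length here is the sum over all annotated exons, which lowers the value of a gene with long alternative exons.

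**Figure D1:**
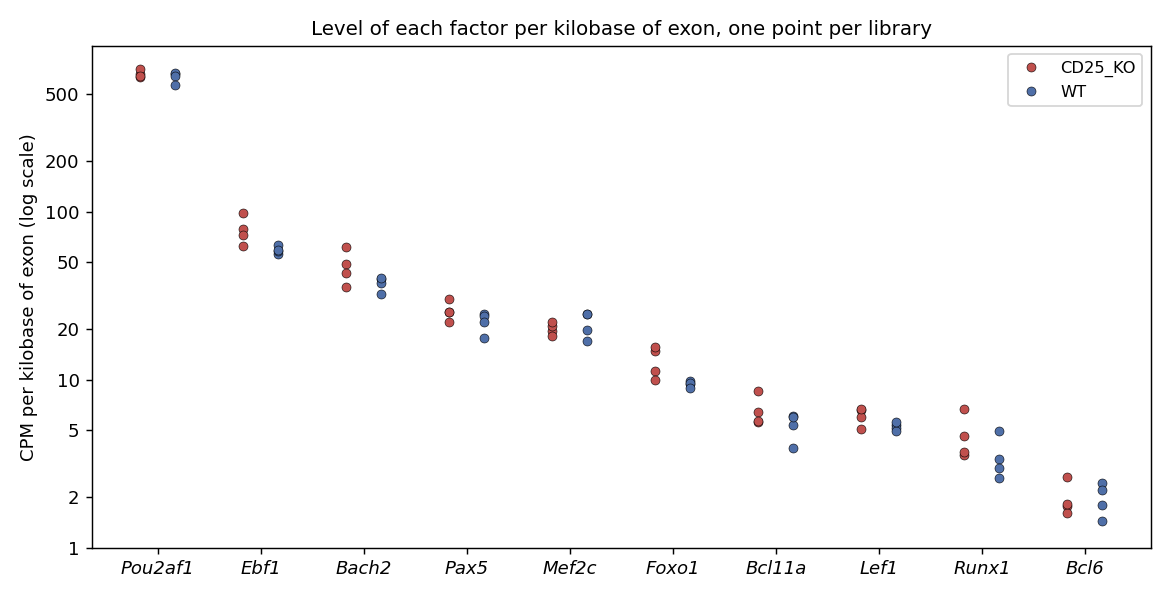
Level of each factor in CPM per kilobase of exon on a log scale, with 1 point per library, labelled knockout left of wild type. Pou2af1 lies at or above 567 in every library, and Bcl6 between 1.44 and 2.64.

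In the comparison of the genotypes none of the 10 members passed the test over all genes, and 8 of the 10 had a higher mean value in the libraries labelled knockout. Ebf1 and Foxo1 had the smallest p-values, with 1.32-fold and 1.37-fold higher values. Across all genes the test called 0 of 18884 (0%) at an adjusted p of 0.05 by edgeR's quasi-likelihood test, as did DESeq2 (0) and limma-voom (0). With the p-value left unadjusted and a threshold of 0.05, 2 members were higher, Ebf1 and Foxo1, where 5.53% of all genes tested were higher at that level and 7.11% lower. The median log2 fold change of the 10 members was 0.26, against 0.00 over all genes tested, of which 50.4% had a higher value in the libraries labelled knockout (52.8% of those averaging 5 CPM or more). All 10 intervals lay within 2-fold either way, from 0.713-fold at the lowest for Bcl6 to 1.97-fold at the highest for Runx1.

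**Figure D2:**
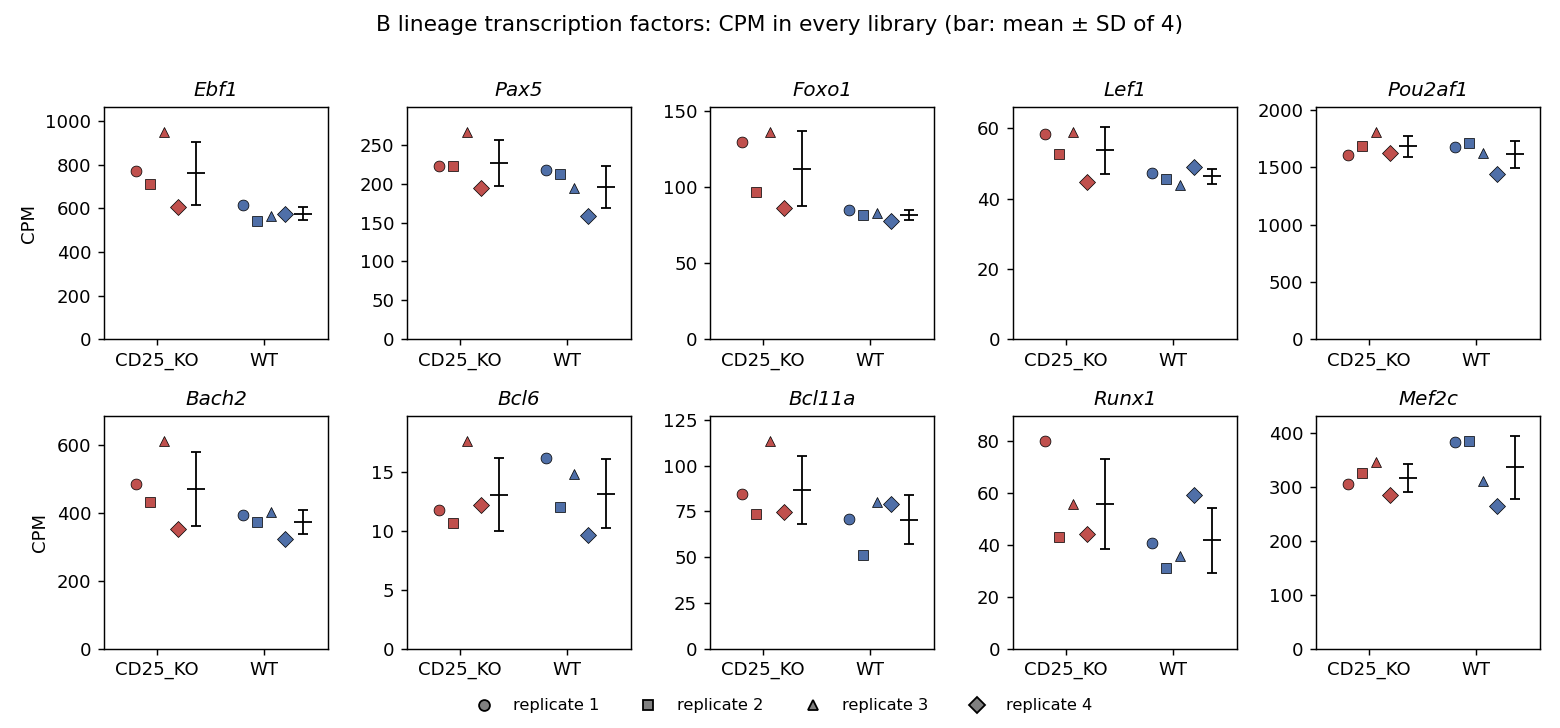
CPM of each factor in every library, labelled knockout left and wild type right, with the replicate number as marker shape and the mean ± SD of 4 libraries as a bar. For Ebf1, Foxo1 and Bach2 the libraries labelled knockout spread widely, from 607.1 to 950.8 CPM for Ebf1, while the wild type libraries lie close together.

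Among the factors that start the programme, Ebf1 (ENSMUSG00000057098.14, chromosome 11, 44617317 to 45008091, plus strand; build GRCm38) had 773, 711.7, 950.8 and 607.1 CPM in labelled knockout 1 to 4. In wild type 1 to 4 it had 615, 543.5, 565 and 575.8 CPM. Labelled knockout 1, 2 and 3 lay above every wild type library and labelled knockout 4 lay just under wild type 1. The log2 fold change was 0.40 ± 0.13 (SE), with a 95% interval from 0.11 to 0.69 and an adjusted p of 0.391 by edgeR's quasi-likelihood test. Foxo1 (ENSMUSG00000044167.6, chromosome 3, 52268336 to 52353221, plus strand), which also activates the Rag genes, had 129.2, 97.0, 136.3 and 85.94 CPM in labelled knockout 1 to 4, against 85.1, 81.51, 82.73 and 77.61 CPM in wild type 1 to 4. It was the only member without overlap between the groups, a pattern that 2.62% of all genes tested showed in this direction and 4.17% in the other, where there were 0 members. The gap between the nearest libraries, labelled knockout 4 and wild type 1, was small, and with upper quartile factors 0 members were free of overlap, while with DESeq2's factors 2 were, Ebf1 and Foxo1. Its log2 fold change was 0.46 ± 0.15 (SE, 95% interval 0.12 to 0.79, adjusted p = 0.391, edgeR quasi-likelihood test).

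Runx1 (ENSMUSG00000022952.17, chromosome 16, 92601466 to 92826149, minus strand) varied most between libraries. It had 80.13, 42.89, 55.78 and 44.32 CPM in labelled knockout 1 to 4 and 40.82, 31.12, 35.57 and 59.31 CPM in wild type 1 to 4. Labelled knockout 1 was highest, and wild type 4 lay above the other 3 libraries labelled knockout. The log2 fold change of 0.42 ± 0.25 (SE, adjusted p = 0.481, edgeR quasi-likelihood test) was close to that of Ebf1, with a wider error. It depended on single libraries, at 0.18 (adjusted p = 0.868, same test) without labelled knockout 1 and 0.64 (adjusted p = 0.132, same test) without wild type 4. Bcl11a (ENSMUSG00000000861.15, chromosome 11, 24078056 to 24174123, plus strand) had 84.69, 73.54, 113.5 and 74.6 CPM in labelled knockout 1 to 4, against 70.78, 51.38, 80.36 and 79.24 CPM in wild type 1 to 4. Labelled knockout 3 stood high and wild type 2 low, and the rest overlapped (log2 fold change 0.30 ± 0.18 SE, adjusted p = 0.489, edgeR quasi-likelihood test). Without labelled knockout 3 that log2 fold change was 0.14. Mef2c (ENSMUSG00000005583.16, chromosome 13, 83504034 to 83667080, plus strand) was 1 of the 2 members with a lower mean in the libraries labelled knockout. Its values were 306.6, 327.2, 346.1 and 286.1 CPM in labelled knockout 1 to 4 and 384.6, 386.1, 311.6 and 265.6 CPM in wild type 1 to 4, with the widest spread in wild type (log2 fold change -0.09 ± 0.13 SE). That sign turned without wild type 2, where the log2 fold change was 0.02.

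Pax5 (ENSMUSG00000014030.15, chromosome 4, 44524757 to 44710487, minus strand), the factor that fixes commitment, had 222.0, 222.7, 266.7 and 194.5 CPM in labelled knockout 1 to 4, against 218.0, 212.4, 194.2 and 157.9 CPM in wild type 1 to 4. Labelled knockout 3 was the highest and wild type 4 the lowest of the 8, and the remaining libraries lay between 194.2 and 222.7 CPM in either group. The log2 fold change was 0.21 ± 0.13 (SE, adjusted p = 0.493, edgeR quasi-likelihood test), and it was 0.12 without labelled knockout 3 as well as without wild type 4. Lef1 (ENSMUSG00000027985.14, chromosome 3, 131110471 to 131224356, plus strand) had 58.21, 52.7, 59.01 and 44.79 CPM in labelled knockout 1 to 4 and 47.19, 45.44, 43.74 and 48.85 CPM in wild type 1 to 4. Here 3 libraries labelled knockout exceeded every wild type library and labelled knockout 4 lay within the wild type range (log2 fold change 0.21 ± 0.11 SE, adjusted p = 0.448, edgeR quasi-likelihood test). For Pou2af1 (ENSMUSG00000032053.8, chromosome 9, 51213708 to 51240080, plus strand) the libraries labelled knockout held 1603, 1685, 1810 and 1627 CPM and the wild type libraries 1676, 1709, 1626 and 1444 CPM. The groups overlapped. It was the steadiest of the 10 in the libraries labelled knockout, with a coefficient of variation of 5.5%. In wild type it had 7.32%, and Foxo1 (3.83%), Lef1 (4.77%) and Ebf1 (5.21%) varied less. Its 95% interval for the fold change ran from 0.916 to 1.18, and the log2 fold change of 0.06 turned to -0.04 with upper quartile factors.

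The 2 repressors were Bach2 and Bcl6. Bach2 (ENSMUSG00000040270.16, chromosome 4, 32238804 to 32586108, plus strand) had 485.9, 431.0, 612.3 and 352.8 CPM in labelled knockout 1 to 4, against 392.7, 373.6, 401.4 and 321.7 CPM in wild type 1 to 4. As with Ebf1 and Lef1, labelled knockout 1, 2 and 3 exceeded every wild type library and labelled knockout 4 did not (log2 fold change 0.34 ± 0.16 SE, adjusted p = 0.402, edgeR quasi-likelihood test). Without labelled knockout 3 it was 0.18. Bcl6 (ENSMUSG00000022508.5, chromosome 16, 23965052 to 23988852, minus strand) had 11.79, 10.72, 17.67 and 12.2 CPM in labelled knockout 1 to 4 and 16.2, 12.06, 14.84 and 9.681 CPM in wild type 1 to 4. The groups covered the same range, with a log2 fold change of -0.01 ± 0.21 (SE) whose 95% interval ran from -0.49 to 0.47. Antisense genes share exon bases with several members, and no strand setting is recorded for the counts. The largest by count was Bach2os, with 2475 counts over the 8 libraries beside 171858 for Bach2. Pax5, with 86305 counts, shares exon bases with Gm12462 (2209 counts) and 5730488B01Rik (1333 counts) on the opposite strand, which is more beside its own count. The widest was Gm43352, which covers 13.7% of the exon bases of Lef1 and had 201 counts beside 20496.

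The values of several factors moved together from library to library, and labelled knockout 3 carried most of it. It was the highest of the 8 libraries for 8 of the 10 factors and above the mean of the 8 libraries for all 10. Labelled knockout 1 was above that mean for 7, labelled knockout 2 for 7 and labelled knockout 4 for 0, against 4, 3, 2 and 2 in wild type 1 to 4. Averaged over the 10 factors, the log2 deviation was 0.19, -0.002, 0.37 and -0.11 in labelled knockout 1 to 4 and -0.005, -0.17, -0.095 and -0.18 in wild type 1 to 4. Wild type 4 was the lowest library for 6 factors. The shares of all genes tested with their highest value in labelled knockout 3 or their lowest in wild type 4 were not counted. Both libraries also got the lowest quality weights from limma-voom, 0.63 for labelled knockout 3 and 0.48 for wild type 4. Of the 10 factors, 5 had labelled knockout 1 and 3 above all 6 other libraries (Ebf1, Foxo1, Lef1, Bach2 and Bcl11a), where 10.5% of all genes tested did. Over the 8 libraries the closest pair of the 45 was Ebf1 with Foxo1, whose log2 deviations differed by a root mean square of 0.093. Next came Ebf1 with Bach2 at 0.108 and Foxo1 with Bach2 at 0.110, and Runx1 with Bcl6 was the least alike at 0.538.

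**Figure D3:**
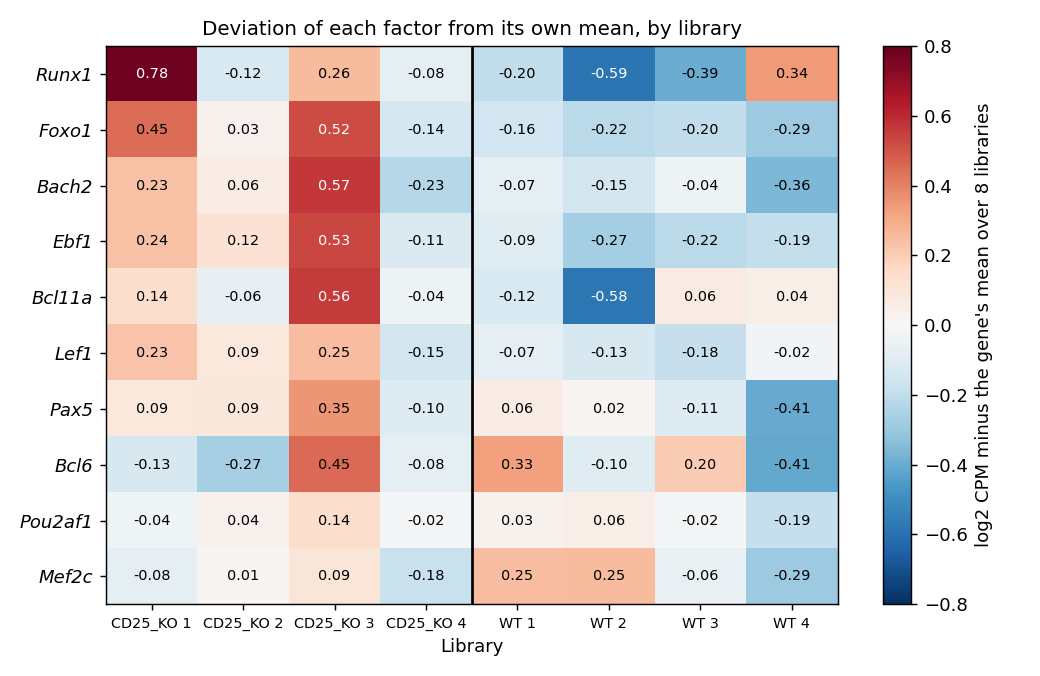
Each cell is the log2 CPM of a factor in a library minus its mean over the 8 libraries, labelled knockout left of the line and wild type right of it, red above and blue below the mean. The column of labelled knockout 3 is above the mean in all 10 rows, and that of labelled knockout 4 is below it in all 10.

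Ebf1, Foxo1 and Bach2 were then set against all other genes averaging 10 CPM or more. Among 7730 such genes the nearest to Ebf1 was Zcchc2, at a root mean square difference of 0.0707, followed by Entpd7 (0.0860) and Clcf1 (0.0867), where the median gene stood at 0.328. Nearest to Foxo1 were Elmsan1 (0.0739), Eif4g3 (0.0809) and Bptf (0.0843), and nearest to Bach2 were Crebbp (0.0474), a histone acetyltransferase gene, Prr14 (0.0773) and Vgll4 (0.0805). These are the same 8 libraries for every gene, so the likeness describes these libraries only.

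The size of the differences changed with labelled knockout 1 and 3. Without labelled knockout 3 alone the median log2 fold change of the 10 factors was 0.15. Without both of them, a choice made after the data were seen, the median log2 fold change of the 10 factors was 0.05, against -0.03 over all genes tested. In that fit 0 members had an unadjusted p under 0.05 by edgeR's quasi-likelihood test, where only 497 of all 21034 genes tested did. The log2 fold change of Ebf1 was then 0.18, that of Foxo1 0.14, that of Bach2 0.05 and that of Runx1 0.05. The 2 splits by Y-linked transcripts were also chosen after the data were seen. Within the 5 libraries without these transcripts, labelled knockout 1 and 3 were set against wild type 1, 3 and 4. This split keeps the libraries in which the factors averaged highest, so higher values there are no separate support. All 10 factors had higher values in the libraries labelled knockout, at a median of 0.40 on the log2 scale, against 0.04 over all genes tested. In them Foxo1 had a log2 fold change of 0.73 (adjusted p = 0.16) and Ebf1 one of 0.59 (adjusted p = 0.179, both by edgeR's quasi-likelihood test). Within the 3 libraries with Y-linked transcripts the median was 0.08. Bcl11a alone passed there (log2 fold change 0.52, adjusted p = 0.0447, edgeR quasi-likelihood test; 8.28% of all 22279 genes tested were called higher), but that test sets 2 libraries against wild type 2 alone, whose spread is taken to be that of the others. Labelled knockout 1 and 3 are also the libraries with the lowest neutrophil and natural killer cell markers, and the part of those cells or of the animals' sex in the values was not tested.

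**Figure D4:**
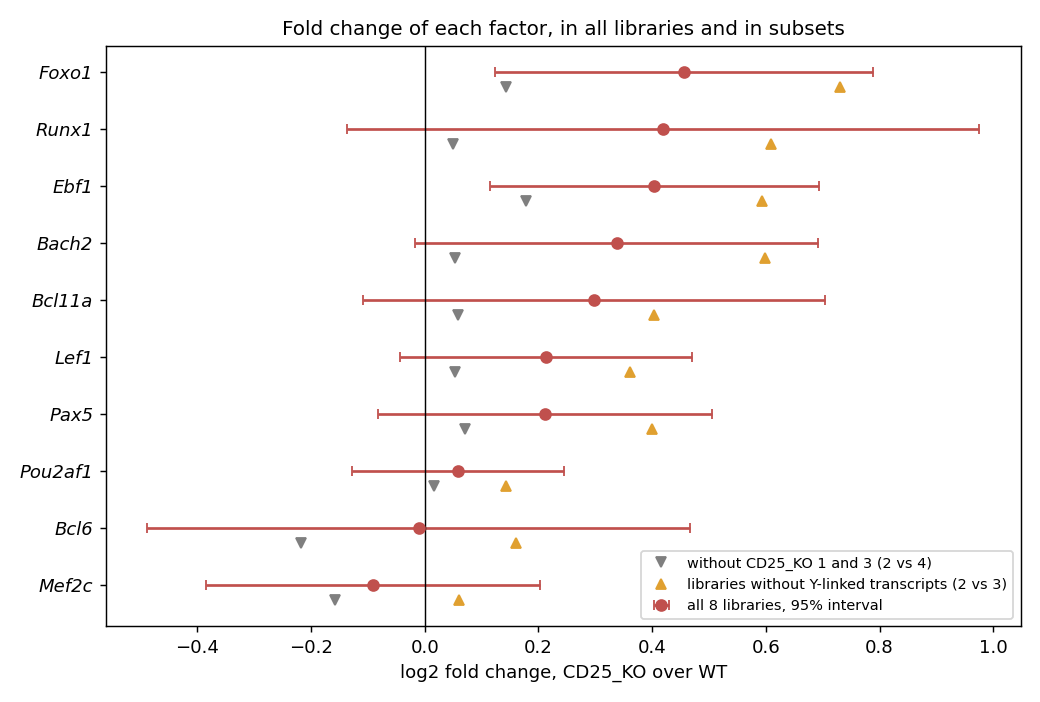
Log2 fold change of each factor, labelled knockout over wild type, with its 95% interval in all 8 libraries (circles), without labelled knockout 1 and 3 (grey triangles) and within the libraries without Y-linked transcripts (orange triangles). Without labelled knockout 1 and 3 every factor lies nearer to 0 except Bcl6 at -0.22 and Mef2c at -0.16.

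**Figure D5:**
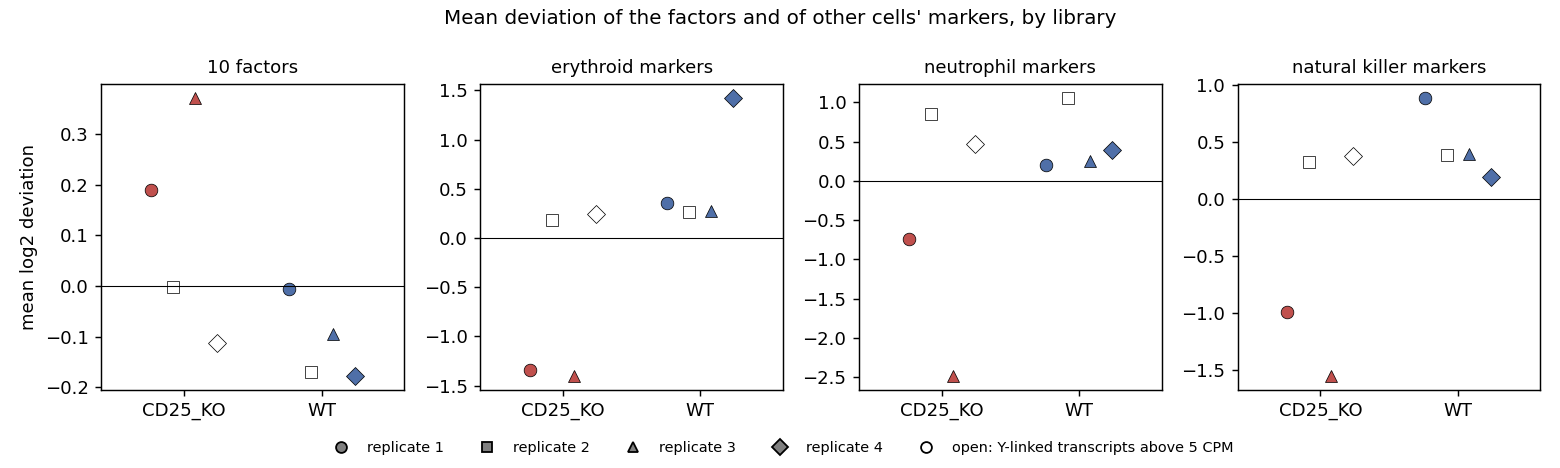
Mean log2 deviation per library of the 10 factors and of the erythroid, neutrophil and natural killer cell markers, labelled knockout left and wild type right; open markers are the libraries with Y-linked transcripts above 5 CPM. Labelled knockout 1 and 3 are the highest for the factors (0.19 and 0.37) and the lowest for each marker list.

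Apart from the fit within the libraries with Y-linked transcripts, only 1 combination of settings called members. With a sex term in the model, set by the Y-linked transcripts, and without wild type 4, 4 of the 10 factors passed, all higher in the libraries labelled knockout, where 11.9% of all 19506 genes tested were called higher. They were Runx1 (log2 fold change 0.69, adjusted p = 0.0144), Foxo1 (0.46, adjusted p = 0.0311), Ebf1 (0.44, adjusted p = 0.0318) and Bcl11a (0.45, adjusted p = 0.0374), all by edgeR's quasi-likelihood test. The sex term separates labelled knockout 1 and 3 from 2 and 4, and sex and any other difference between these libraries cannot be told apart. In wild type it sets apart wild type 2 alone, which also held 60.0 CPM of Xist. With the sex term and all 8 libraries 0 members passed, the smallest adjusted p being 0.0719 for Ebf1. Without wild type 4 and without that term 358 genes (1.84%) were called higher and 0 of the members, and with a GC trend removed as well 4.59% and again 0.

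Most partners of these factors also had a higher value in the libraries labelled knockout. Of 16 other B lineage transcription factors and cofactors, 0 passed the test, and 14 had a higher and 2 a lower value. Of all genes tested 50.4% were higher, and 52.8% of those averaging 5 CPM or more. The median over the 16 was 0.31 on the log2 scale. The smallest p-values belonged to Foxp1, a forkhead factor needed for Rag expression, and Ikzf1, which encodes Ikaros. Foxp1 had 1007, 789.7, 1065 and 805.6 CPM in labelled knockout 1 to 4 and 701.5, 566.9, 671 and 753.7 CPM in wild type 1 to 4, with no overlap (log2 fold change 0.45 ± 0.13 SE). Ikzf1 averaged 222 ± 32.5 CPM in the libraries labelled knockout and 177 ± 17.7 CPM in wild type (SD, n = 4 each). Its groups did not overlap either, a pattern that 2.62% of all genes tested showed in this direction. Foxp1 and Ikzf1 both had an adjusted p of 0.391 by edgeR's quasi-likelihood test. Labelled knockout 1 and 3 again held the highest values of both genes. Pou2f1, Ikzf3 and Myb had this pattern too, and the remaining partners did not. Zbtb7a, named for the largest log2 fold change of the 16 (0.94 ± 0.47 SE), was highest in labelled knockout 1 (110.9 CPM) and wild type 4 (68.74 CPM). Tcf3 (642.8 and 556.2 CPM), Spi1 (133.1 and 112.9 CPM), Ets1 and Cbfb were also highest in these libraries.

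Close relatives of the 10 factors were mostly scarce. Of 19 paralogues, 11 passed the count filter, 7 of them with a higher value in the libraries labelled knockout, and none passed the test. Ebf2, Ebf3 and Ebf4, the other members of the EBF family, had means of at most 0.0617 CPM in either group, Pax8 at most 0.0523 CPM and Bcl11b, the T lineage relative of Bcl11a, at most 0.0962 CPM. Foxo6, a FOXO relative, was at 0 counts in all 8 libraries. On the mean over the 8 libraries no paralogue exceeded its relative per kilobase of exon, but Mef2d came close, at 19.2 CPM per kilobase beside 20.8 for Mef2c. Mef2d averaged 21.8 CPM per kilobase and Mef2c 20.1 in the libraries labelled knockout, while Mef2d averaged 16.7 and Mef2c 21.4 in wild type. Single libraries of Mef2d ran from 103.8 to 171 CPM in the libraries labelled knockout and from 82.94 to 114 CPM in wild type. Per kilobase the libraries of these 2 genes overlapped in both groups, so their order is not set. Mef2d and Mef2a had the smallest p-values of the paralogues (log2 fold changes 0.38 ± 0.17 and 0.36 ± 0.20 SE, adjusted p = 0.395 and 0.46, edgeR quasi-likelihood test).

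Genes that EBF1 and PAX5 activate were split in direction. Of 14 such genes 0 passed, 8 had a higher and 6 a lower value in the libraries labelled knockout, and the median log2 fold change was 0.01. At an unadjusted p under 0.05, 3 of them were lower and 0 higher, where 7.11% of all genes tested were lower and 5.53% higher. The smallest p-values belonged to the surrogate light chain genes Igll1 and Vpreb1, which had lower values. Igll1 had 75.08, 159.2, 38.79 and 72.85 CPM in labelled knockout 1 to 4 and 206, 153.2, 88.59 and 204.4 CPM in wild type 1 to 4. Labelled knockout 3, the library with the highest Ebf1, had the lowest Igll1, and labelled knockout 2 lay within the wild type range (log2 fold change -0.91 ± 0.40 SE, adjusted p = 0.393, edgeR quasi-likelihood test). Vpreb1 had a log2 fold change of -0.86 ± 0.38 (SE). The remaining gene lower at an unadjusted p under 0.05 was Vpreb3, with a log2 fold change of -0.28 ± 0.13 (SE). Cd79a and Cd79b, the signalling chains of the receptor, had log2 fold changes of 0.13 ± 0.11 and -0.03 ± 0.09 (SE); these 2 were picked after their values were seen.

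Of 12 genes that FOXO1 activates, 0 passed, 8 had a higher and 4 a lower value in the libraries labelled knockout, and the median over the 12 was 0.22 on the log2 scale. The adaptor gene Irs2 had 39.45, 30.5, 42.88 and 35.26 CPM in labelled knockout 1 to 4 and 25.63, 20.77, 21.53 and 28.74 CPM in wild type 1 to 4. Its groups did not overlap, as for 2.62% of all genes tested in this direction. The log2 fold change of Irs2 was 0.62 ± 0.15 (SE, adjusted p = 0.391, edgeR quasi-likelihood test). Klf2, a factor of quiescence and trafficking, had 34.66, 24.87, 46.34 and 20.89 CPM in labelled knockout 1 to 4 and 17.5, 19.02, 20.53 and 21.08 CPM in wild type 1 to 4, highest in labelled knockout 1 and 3 like Foxo1. The recombinase genes Rag1 and Rag2, chosen here after their values were seen, had log2 fold changes of -0.33 ± 0.22 and -0.18 ± 0.11 (SE).

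On the repressed side, 14 genes that PAX5 or EBF1 hold down were read, of which 11 passed the count filter, 6 with higher and 5 with lower values in the libraries labelled knockout, and 0 passed the test. Notch1, the receptor that directs the T lineage, averaged 34.3 ± 8.66 CPM in the libraries labelled knockout and 23.6 ± 5.33 CPM in wild type (SD, n = 4 each), and Csf1r, the macrophage colony stimulating factor receptor, 1.53 ± 0.483 CPM in the libraries labelled knockout and 2.40 ± 0.745 CPM in wild type. Their log2 fold changes were 0.54 ± 0.22 and -0.65 ± 0.32 (SE). Csf1r also marks monocytes, whose 9 markers summed to between 39.1 and 162 CPM in the libraries labelled knockout and between 127 and 221 CPM in wild type. Of 12 genes repressed by BCL6 or BACH2, 11 passed the filter, 4 had higher and 7 lower values and 0 passed. Trp53, which BCL6 represses in germinal centre B cells, had 233 ± 35.7 CPM in the libraries labelled knockout and 193 ± 6.80 CPM in wild type, and the checkpoint kinase gene Chek1 22.4 ± 8.34 CPM in the libraries labelled knockout and 33.1 ± 1.23 CPM in wild type (SD, n = 4 each). Chek1 is a gene of dividing cells and its lowest values, 11.94 and 20.02 CPM, were in labelled knockout 3 and 1.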

How the data were processed

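Cells labelled as pro-B cells gave 8 mouse RNA-seq libraries, 4 labelled CD25_KO and 4 WT, with replicate numbers from the sample titles. The values are raw fragment counts per gene, deposited by the authors. featureCounts 2.0.1 was run on read pairs against GENCODE M25 exons, per the file headers, counting every alignment of multi-mapping fragments, with no strand setting recorded. Per the submitters' processing notes STAR 2.7.7a, GATK 4.1.9.0 and mm10 were used. The summed exon length per gene (unit: other), per the file headers, was used only for levels per kilobase.

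Gene symbols and coordinates are those of GENCODE M21 (GRCm38, which is mm10); 55227 of 55487 identifiers were matched. Everything below was computed here from the counts. Genes were filtered with filterByExpr, scaled with TMM factors and tested with edgeR 4.0.16 in R 4.3.3 (glmQLFit with robust estimation, glmQLFTest, two-sided), genotype as the only term, with Benjamini-Hochberg adjustment over all genes tested at 0.05. SEs and 95% intervals come from the quasi-likelihood F. Genes of at least 5 CPM had a median SE of 0.157, and edgeR's common dispersion gave a coefficient of variation of 0.308. Log2 CPM deviations used a prior count of 2. No 2 libraries of 1 group agreed within counting noise: the smallest chi-square was 29.5 times its degrees of freedom. Alternatives used DESeq2 1.42.0 and limma 3.58.1, other scalings and filters, a replicate block, a GC trend removed per library, sex from Y-linked transcripts (above 5 CPM) and leaving out libraries.

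The members and gene lists were chosen with earlier results of these data known. All 10 members are described; of each list of partners, paralogues and targets the genes past the test or, with none, the 2 of smallest p are named, with exceptions stated. Cell type marker lists are given by counts and sums with examples. The table had 0 columns of other samples. The result for 1 marker gene is not reported here.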

Additional observations from a re-analysis of the deposited data

How the results depend on the processing

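In 20 of 22 alternatives 0 members were called, and in all 22 the members' median log2 fold change was above 0. Genes called among all tested were 0 in 18 alternatives, 3112 with the sex term and without wild type 4 (4 members called), 1025 with the GC trend removed and without wild type 4, and 2005 within the libraries with Y-linked transcripts (1 member called, median 0.076). With single libraries left out, genes called lay between 0 and 363 (363 without wild type 4), members called between 0 and 0 and the members' median between 0.15 (without labelled knockout 3) and 0.34. Without labelled knockout 1 and 3 the median was 0.054.

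Of 220 values of single members, 14 changed sign. Pou2af1 had -0.037 with upper quartile factors, -0.012 with the GC trend removed and without wild type 4, and -0.055 within the libraries with Y-linked transcripts. Pax5 had -0.035 in those libraries. Mef2c lay between -0.19 and 0.016 in the fits that omit a library, positive without wild type 2, and had 0.061 within the libraries without Y-linked transcripts. Bcl6 had 0.037 without a count filter, 0.050 with the sex term and 0.16 within the libraries without Y-linked transcripts, and lay between -0.19 and 0.12 in the fits that omit a library. The cause was not tested.

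Upper quartile factors moved the median of all genes by -0.09. At an unadjusted p under 0.05 edgeR found 2388 genes, DESeq2 2620 and limma-voom 3758. With the replicate number as a block 0 genes were called (smallest adjusted p 0.274 by edgeR, 3057 genes at an unadjusted p under 0.05) and the median was 0.26. Libraries with the same number deviated together with correlations of 0.007, 0.636, 0.245 and -0.033, so the numbers were not taken as pairs, and 3 of 8 libraries correlated best with their own number. Among the members the 95% intervals reached from 0.713-fold to 1.97-fold, which is the precision these libraries gave.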

Other observations

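Other B lineage stages and cell types had no member past the test either. Of 8 markers of later B cells 3 had a higher and 5 a lower value in the libraries labelled knockout, with log2 fold changes from -0.31 to 0.22. The smallest p-values were those of Ms4a1 (log2 fold change -0.23 ± 0.10 SE) and of Tnfrsf13c, the receptor for the survival factor BAFF, which averaged 467 ± 26.3 CPM in the libraries labelled knockout and 401 ± 48.0 CPM in wild type (SD, n = 4 each; log2 fold change 0.22 ± 0.10 SE). Of 6 plasma cell genes, whose programme BACH2, BCL6 and PAX5 hold down, 5 passed the count filter, with log2 fold changes from -0.47 to 0.68. The smallest p-value was that of Mzb1, a chaperone gene of antibody-secreting and marginal zone B cells, with 13.5 ± 1.1 CPM in the libraries labelled knockout and 18.7 ± 2.25 CPM in wild type (SD, n = 4 each). All 4 libraries labelled knockout lay below all 4 wild type libraries for it, as for 4.17% of all genes tested (log2 fold change -0.47 ± 0.14 SE, adjusted p = 0.391, edgeR quasi-likelihood test). The next was Prdm1, encoding BLIMP1, with 11.5 ± 4.63 CPM in the libraries labelled knockout and 7.92 ± 2.18 CPM in wild type and overlapping groups.

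Of 9 stem and progenitor markers 5 passed the filter, with sums between 8.5 and 12.2 CPM in the libraries labelled knockout and between 8.07 and 12.2 CPM in wild type. Of the T cell markers Lck, which held most of their sum, averaged 26.7 ± 4.67 CPM in the libraries labelled knockout and 30.4 ± 3.40 CPM in wild type (SD, n = 4 each), and each of the other 10 averaged at most 1.09 CPM in either group. Of the dendritic cell markers Tcf4, an E protein gene that B lineage cells also express, averaged 236 ± 7.95 CPM in the libraries labelled knockout and 237 ± 23.5 CPM in wild type, and Bst2 27.9 ± 3.29 CPM in the libraries labelled knockout and 30.5 ± 4.56 CPM in wild type. The other 6 averaged at most 5.02 CPM in either group. Of the master factors of other lineages, Cebpa averaged 0.0135 CPM in the libraries labelled knockout and 0.0132 CPM in wild type. Gata3 averaged 0.241 CPM in the libraries labelled knockout and 0.127 CPM in wild type, and Gata1 0.473 and 0.879 CPM. These are examples. Spi1, read above with the B lineage partners, was not scarce, at 81.0 ± 35.8 CPM in the libraries labelled knockout and 47.9 ± 43.8 CPM in wild type.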
